A study of Homo sapiens with 4 samples.

Results

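The respiratory chain and ATP synthase of HepG2 cells, an established human hepatoma line, are described here through the messenger RNAs of their subunits. Members were the genes with a single platform symbol beginning NDUFA, NDUFB, NDUFC, NDUFS, NDUFV (not NDUFAF), SDHA to SDHD, UQCR, CYC1, COX4 to COX8 or ATP5, without pseudogenes. This gave 85 genes read by 161 probe sets, of 19775 genes read by 41091 probe sets. The letters brought in 77 subunit genes: 33 of complex I, 3 of complex II, 7 of complex III, 17 of complex IV and 17 of complex V. The other 8 share the letters without being subunits, namely SDHAF1 to SDHAF4, ATP5IF1 and the non-coding RNAs NDUFB2-AS1, NDUFV1-DT and NDUFV2-AS1. Some subunits were not analysed here, among them SDHB and UQCRFS1, and NDUFS8, NDUFS5, NDUFC2 and UQCRH, whose probe sets carry several symbols. NDUFA4 stands in the annotation under the symbol COXFA4 and is given with the genes around the chain.

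Complexes I to IV of the inner mitochondrial membrane pass electrons from NADH and succinate through coenzyme Q and cytochrome c to oxygen. Complexes I, III and IV pump protons as they do so, and complex V, the ATP synthase, uses the return of these protons to make ATP. Most subunits are encoded in the nucleus and a small set in mitochondrial DNA, so that each complex other than complex II, which is all nuclear, needs both genomes. In hepatocytes this system serves fatty acid oxidation, urea synthesis and gluconeogenesis, while hepatoma lines grown in high glucose also make much of their ATP by glycolysis.

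The study, whose title names hepatic cancer metabolism, depleted LSD1, a histone demethylase encoded by KDM1A that uses FAD as cofactor, and read RNA on Affymetrix HG-U133 Plus 2.0 arrays. The knockdown group held 2 arrays, 1 of cells given siRNA-1 and 1 of cells given siRNA-2 against LSD1, and the control group held 2 arrays of cells given an siRNA against GL3. All cells were in medium with 25 mM glucose and 10% serum, were transfected at about 50% confluence and were harvested after 4 days. The knockdown was transient and in 1 cell line, and the labels do not say that the arrays come from separate cultures. A p-value therefore reflects how far these arrays vary, and that variation may be technical. Within the knockdown group it also holds any difference between the siRNAs. The values are deposited RMA values, taken as log2 and centred by the authors so that each probe set has a median of 0 over the 4 arrays. Levels are therefore gone: a value is the distance from that median, and a difference is the mean of the knockdown arrays minus the mean of the control arrays, on the log2 scale. Each gene is represented by 1 probe set, chosen by brightness.

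KDM1A, the targeted gene, read -1.55 on the siRNA-1 array and -1.17 on the siRNA-2 array, against 1.23 and 1.17 on the control arrays, a difference of -2.56 ± 0.16 (SE, n = 2 arrays per group, limma adjusted p = 0.0853). Its values were thus far lower on both knockdown arrays, although it did not pass the threshold of 0.05. All 8 hepatocyte markers measured, such as ALB and AFP, were in the brightest class, as were 3 of 7 markers of other cells, ACTA2, PECAM1 and COL1A1. The hybridization spike-ins, which are added to every sample alike, had medians of 0.64 and 0.69 on the knockdown arrays and -0.71 and -0.64 on the control arrays. The difference of the 5′ from the 3′ probe sets of ACTB, a sign of RNA integrity, was -0.26 and -0.38 on the knockdown arrays against 0.34 and 0.23 on the control arrays. Both measures separate the groups, and their part in the results was not tested. Over the members, the SD of the values was 0.128 on the siRNA-1 array and 0.254 on the siRNA-2 array, against 0.113 and 0.110 on the control arrays.

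Promoter sequences from RefSeq (GRCh38.p14) were found for 65 of the 77 subunit genes, as 78 windows of 300 bases that run from 250 bases before to 50 bases after a start. Promoters of this system are known for sites of NRF1, GABP and other ETS factors, YY1 and the estrogen-related receptors (ERR), and 7 letters of each site were searched on both strands. The letters GCATGCG of NRF1 occurred in 17.9% of subunit promoters, against 4.63% of 22198 windows of protein-coding genes. The letters CCGGAAG of GABP or ETS occurred in 25.6% of subunit promoters, against 12.8%. AAGATGG of YY1 was present in 23.1%, against 6.04%, and AAGGTCA of ERR in 14.1%, against 3.22%. At least 1 of the 4 was found in 56.4% of subunit promoters and 23.8% of protein-coding ones. A match describes letters and is not a site shown to be bound.

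**Figure D1:**
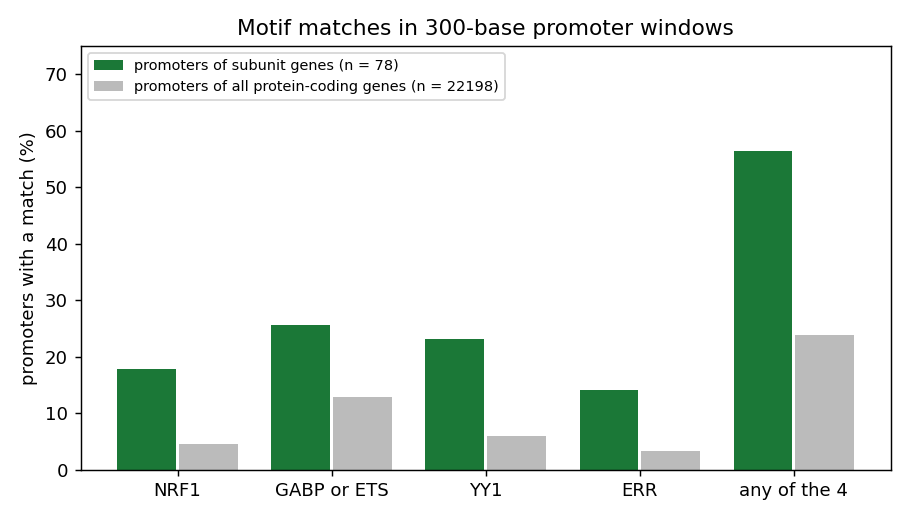
Share of promoter windows (percent, vertical axis) with a match to each motif, for the 78 windows of subunit genes (left bar of each pair) and the 22198 windows of protein-coding genes (right bar). Subunit promoters hold each of the 4 motifs more often, from 25.6% against 12.8% for GABP or ETS to 14.1% against 3.22% for ERR.

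Promoters are shown for NDUFS7, COX7C and ATP5ME, since these subunits of complexes I, IV and V had knockdown arrays clear of the control arrays and carry different sets of matches. Each sequence is the 250 bases before the start, read 5′ to 3′ on the gene's own strand, with matches in capitals. They lie at chr19:1383657-1383906 on the plus strand, chr5:86617691-86617940 on the plus strand and chr4:674277-674526 on the minus strand.
NDUFS7: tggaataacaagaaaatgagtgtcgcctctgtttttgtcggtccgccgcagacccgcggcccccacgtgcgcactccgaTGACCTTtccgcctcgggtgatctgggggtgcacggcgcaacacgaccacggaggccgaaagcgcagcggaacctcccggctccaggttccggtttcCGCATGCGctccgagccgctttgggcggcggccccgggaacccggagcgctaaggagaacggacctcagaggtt
COX7C: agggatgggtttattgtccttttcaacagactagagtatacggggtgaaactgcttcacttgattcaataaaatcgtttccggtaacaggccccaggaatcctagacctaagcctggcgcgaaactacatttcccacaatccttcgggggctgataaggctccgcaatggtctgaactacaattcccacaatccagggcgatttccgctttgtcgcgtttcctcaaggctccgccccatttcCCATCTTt
ATP5ME: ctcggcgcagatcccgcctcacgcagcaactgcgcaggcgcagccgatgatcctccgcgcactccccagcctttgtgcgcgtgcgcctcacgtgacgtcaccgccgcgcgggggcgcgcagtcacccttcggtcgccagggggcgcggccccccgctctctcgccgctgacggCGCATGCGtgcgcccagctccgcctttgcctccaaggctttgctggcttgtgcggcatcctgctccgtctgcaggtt
The NDUFS7 window holds an ERR match on the other strand, 171 bases before the start, and a pair of overlapping NRF1 matches on opposite strands, 74 and 73 bases before it, and the bases after the start, not printed, add a YY1 match at 18. COX7C has a YY1 match on the other strand 8 bases before its start. ATP5ME, like NDUFS7, has an overlapping NRF1 pair, here 77 and 76 bases before the start, with a GABP or ETS match at 4 and a YY1 match at 27 after it. On their chosen probe sets, NDUFS7 read lower and ATP5ME higher on both knockdown arrays. These genes were picked because their arrays were apart, so no link between the shared NRF1 letters and direction can be read from them.

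Read by motif, the subunit genes had median differences close to 0 in every group. The 13 genes with an NRF1 match had a median of 0.06, and both knockdown arrays lay above both controls for 6 and below them for 4. Over all genes these shares were 23.6% above and 25.4% below. The median was 0.01 for the 19 genes with a GABP or ETS match, of which 4 were above and 6 below. It was 0.00 for the 17 with YY1 (7 above, 8 below) and 0.00 for the 10 with ERR (4 above, 3 below). The 25 genes with a promoter but none of the 4 motifs had a median of 0.03, with 8 above and 5 below. Some genes hold several motifs and stand in more than 1 group.

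Across the whole system, mRNA differences on LSD1 knockdown were small and ran both ways. None of the 85 members passed the limma test of knockdown against control, beside 0.00506% of all genes, which is 1 gene, CD36. At an unadjusted p under 0.05 there were 7 members (8.24%), against 14.5% of all genes. Both knockdown arrays lay above both control arrays for 23 members (27.1%, background 23.6%) and below them for 27 (31.8%, background 25.4%), and the groups overlapped for 35. Among genes of the brightest class the background was 26.5% above and 29.9% below, so the shares of members were close to it. The median difference over members was 0.01, against -0.00 over all genes. Differences of at least 1.5-fold were seen for 2 members, NDUFS7 and NDUFV2-AS1, while 8.67% of all genes and 10.8% of those in the brightest class differed by that much. The median absolute difference was 0.150 for members, against 0.163 for all genes and 0.199 for genes of the brightest class. Fewer cells with a transcript and less transcript per cell cannot be told apart in RNA from a whole culture.

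The members were bright and steady. In 75 of 85 (88.2%) the probe set was in the class at 8 or above, against 43.1% of all genes. Complexes I, II and III had every gene in this class, and 4 of the 5 members below 4 were tissue-restricted or little expressed complex IV paralogs: COX6B2, COX7A1, COX7B2 and COX8C. The gap between the control arrays had a median of 0.0364 over members, against 0.0826 over all genes and 0.0596 over genes of the brightest class.

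**Figure D2:**
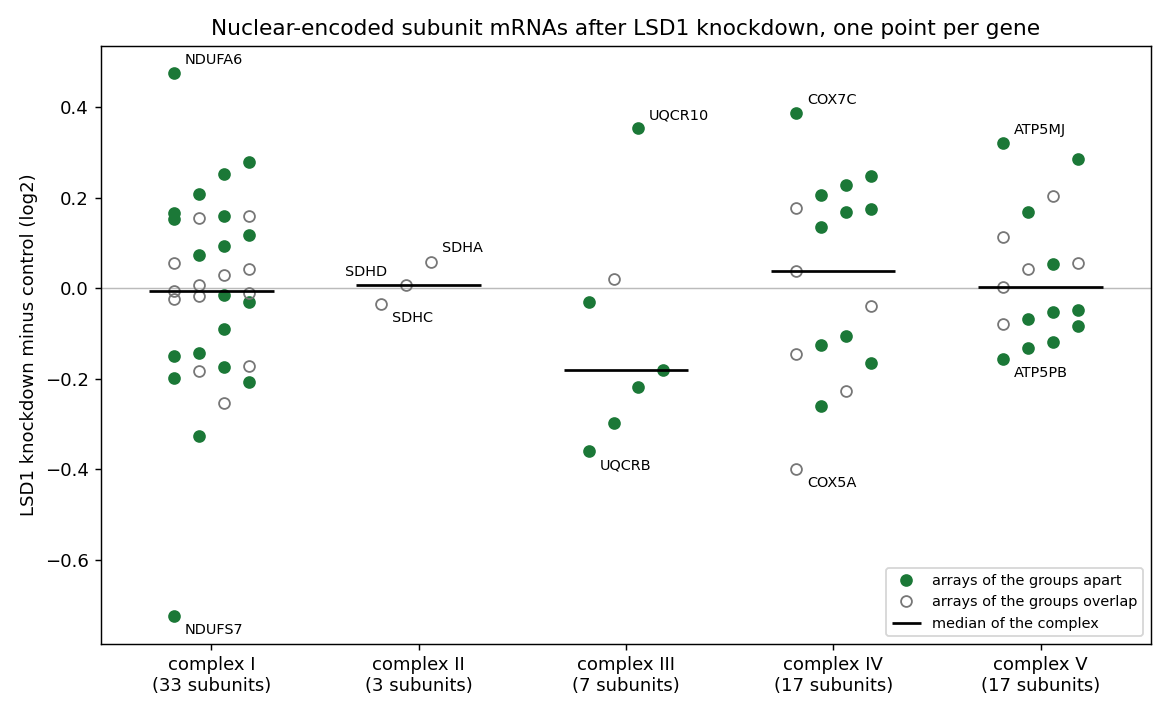
LSD1 knockdown minus control difference (log2, vertical axis) of each of the 77 subunit genes, 1 point per gene, by complex; filled points are genes whose knockdown arrays lay beyond both controls, open points are genes whose groups overlap, and the line is the median of the complex. Complexes I, II, IV and V have medians of -0.01, 0.01, 0.04 and 0.00, and complex III has -0.18.

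Complex I, the NADH dehydrogenase, had 10 subunits higher, 10 lower (30.3% each) and 13 overlapping of 33, with a median difference of -0.01. The shares were 23.6% higher and 25.4% lower over all genes, and 26.5% and 29.9% over genes of the brightest class. NDUFS7, a core subunit that carries the last iron-sulfur cluster before coenzyme Q, read -0.29 and -0.45 on the knockdown arrays and 0.29 and 0.43 on the control arrays. The groups did not overlap, and the difference of -0.72 ± 0.12 (SE, n = 2 arrays per group) was the furthest from 0 of any subunit. It amounts to a 1.65-fold lower value and did not pass (limma adjusted p = 0.20). Its second, dimmer probe set read 0.07 and -0.25 on the knockdown arrays against 0.28 and -0.07 on the control arrays, where the groups overlap. Without _x_at and _s_at probe sets NDUFS7 is read by that probe set alone, with a difference of -0.19.

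The other core subunits of complex I had smaller differences. NDUFS1, the large iron-sulfur subunit of the NADH-oxidizing arm, read 0.01 and -0.35 on the knockdown arrays and 0.01 and -0.01 on the control arrays, so only siRNA-2 stood off. Its difference was -0.17, and all 5 of its probe sets had negative differences, from -0.67 to -0.16. NDUFS3, of the coenzyme Q module, had a difference of -0.15, with -0.09 and -0.05 on the knockdown arrays against 0.05 and 0.12 on the control arrays. NDUFV1, which binds NADH and FMN, differed by -0.03, and the iron-sulfur protein NDUFV2 by 0.16, with -0.04 on the siRNA-1 array and 0.36 on the siRNA-2 array against 0.00 on both control arrays.

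Among the accessory subunits of complex I, NDUFA6 had the highest difference. This LYR-motif protein, which holds the acyl carrier protein NDUFAB1 in the complex, read 0.10 on the siRNA-1 array and 0.66 on the siRNA-2 array, against -0.10 on both control arrays. This came to 0.48 ± 0.22 (SE, n = 2 arrays per group, limma adjusted p = 0.405), and most of it lay on the siRNA-2 array. Its second probe set read -0.12 and 0.48 on the knockdown arrays, against 0.00 and -0.00 on the control arrays. NDUFA5, a matrix-arm subunit, differed by 0.28 and NDUFA2, a matrix-arm subunit with a thioredoxin-like fold, by 0.25, each with the groups apart. NDUFAB1 itself had -0.07 and -0.19 on the knockdown arrays against 0.08 and 0.07 on the control arrays, a difference of -0.21 that ran opposite to that of NDUFA6.

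NDUFB8, a subunit of the membrane arm, read -0.03 on the siRNA-1 array and -0.56 on the siRNA-2 array, against 0.03 and 0.03 on the control arrays, a difference of -0.33. Its probe sets disagreed: another pair gave -0.17 and 0.40. The remaining accessory subunits of complex I lay between -0.25 for NDUFB6, whose groups overlapped, and 0.21 for NDUFS4, which read 0.09 and 0.12 on the knockdown arrays against -0.12 and -0.09 on the control arrays.

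Complex II, the succinate dehydrogenase, had 3 genes, and the arrays of the groups overlapped in all of them. SDHA, the flavoprotein that oxidizes succinate, had a difference of 0.06 on a probe set open to reads from its near-identical pseudogene copies. SDHC, a membrane anchor, read -0.26 on the siRNA-1 array and 0.19 on the siRNA-2 array, against -0.08 and 0.08 on the control arrays. SDHD, the other anchor, had the opposite order, at 0.30 on the siRNA-1 array and -0.29 on the siRNA-2 array, against 0.03 and -0.03 on the control arrays. The means therefore came to -0.03 for SDHC and 0.01 for SDHD, although each knockdown array lay outside the controls.

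Other probe sets of SDHC gave a different account of the size. Relative to the control mean, the remaining 4 in the brightest class read -0.60, -0.57, -0.19 and -0.84 with siRNA-1, and -0.01, 0.15, 0.32 and -0.27 with siRNA-2. A dimmer probe set had -0.27 with siRNA-1 and -0.62 with siRNA-2. All had negative values with siRNA-1, whereas signs were mixed with siRNA-2.

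Complex III, the cytochrome bc1 complex, had the lowest median of the complexes, -0.18. Among its 7 genes the knockdown arrays lay below both controls in 5, above them in 1 and across them in 1, and 3 had an unadjusted p under 0.05. Over genes of the brightest class, to which all 7 belong, these shares were 29.9% below, 26.5% above and 18.4% with an unadjusted p under 0.05. With 7 genes no share can be called particular to the complex. CYC1, the cytochrome c1 that hands electrons to cytochrome c, read -0.12 and -0.21 on the knockdown arrays and 0.12 and 0.16 on the control arrays. The groups were apart, with a difference of -0.30 ± 0.10 (SE, n = 2 arrays per group, limma adjusted p = 0.324) that did not pass. UQCRB, a subunit beside the coenzyme Q site, had -0.12 and -0.36 on the knockdown arrays against 0.12 and 0.12 on the control arrays, a difference of -0.36 ± 0.13 (SE, limma adjusted p = 0.331). Its other probe sets gave differences of 0.08, 0.01 and -0.16, so 1 of 4 had the knockdown arrays below both controls.

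The core proteins of complex III, which face the matrix, were both lower. UQCRC1 read -0.08 and -0.06 on the knockdown arrays and 0.16 and 0.06 on the control arrays, a difference of -0.18. UQCRC2 had -0.01 and -0.38 on the knockdown arrays against 0.01 and 0.03 on the control arrays, a difference of -0.22 that came nearly all from siRNA-2. Its other probe sets gave -0.17, again from siRNA-2, and 0.15 on a dimmer one, with the groups apart the other way. UQCR10, a small subunit next to cytochrome c1, went the other way, with 0.18 and 0.13 on the knockdown arrays and -0.13 and -0.25 on the control arrays. Its difference of 0.35 ± 0.11 (SE, n = 2 arrays per group, limma adjusted p = 0.297) did not pass, and its second probe set gave 0.12. UQCR11 differed by -0.03 and UQCRQ by 0.02, both near 0. The median of the complex was -0.08 with all probe sets of a gene averaged, and -0.03 without the siRNA-2 array, so its size depends on these choices.

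**Figure D3:**
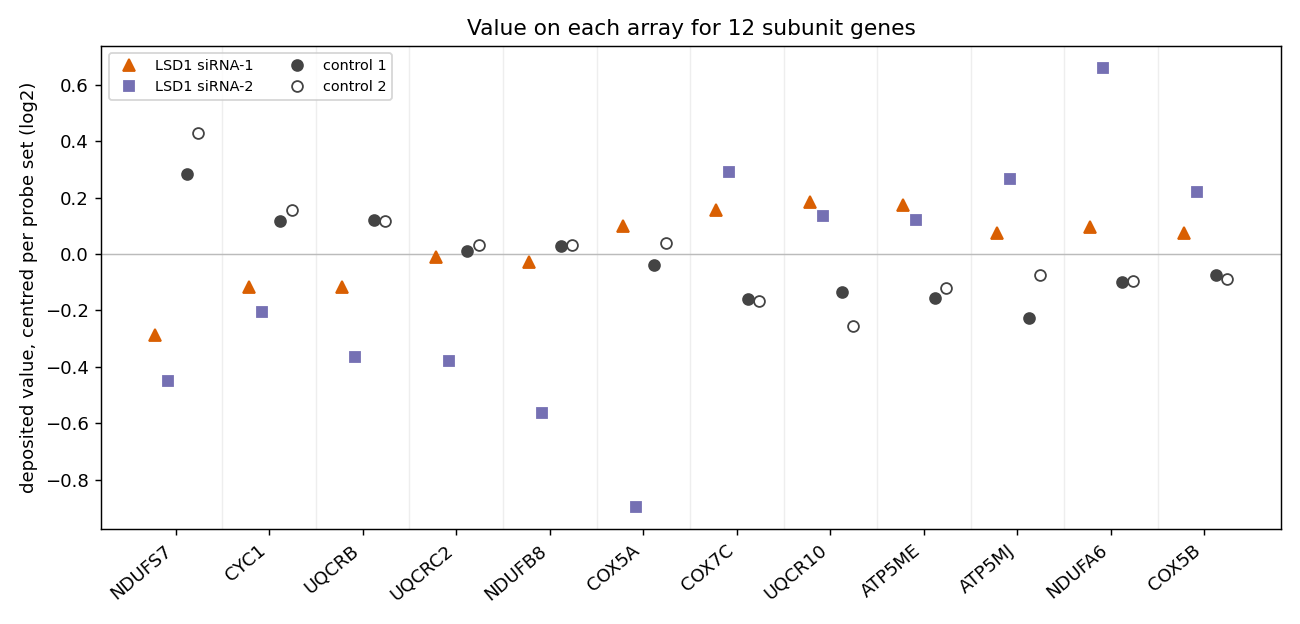
Centred value (log2, vertical axis) of 12 subunit genes on each array: triangles siRNA-1, squares siRNA-2, filled and open circles control 1 and control 2. NDUFS7, CYC1 and UQCRB lie below the controls and COX7C, UQCR10 and ATP5ME above them on both knockdown arrays, whereas COX5A departs from the controls mainly on the siRNA-2 array, at -0.90.

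Complex IV, cytochrome c oxidase, had 7 subunits higher (41.2%), 4 lower (23.5%) and 6 overlapping of 17, with a median of 0.04. The shares were 23.6% higher and 25.4% lower over all genes, and 26.5% and 29.9% over genes of the brightest class. COX7C, a small subunit of the membrane domain, read 0.16 and 0.29 on the knockdown arrays and -0.16 and -0.17 on the control arrays. This came to 0.39 ± 0.11 (SE, n = 2 arrays per group, limma adjusted p = 0.276), a 1.31-fold higher value that did not pass. COX7C was nevertheless even across its 3 probe sets, which gave 0.39, 0.33 and 0.27, each with the groups apart. COX5B, a zinc-binding subunit on the matrix side, had 0.07 and 0.22 on the knockdown arrays against -0.07 and -0.09 on the control arrays, a difference of 0.23, and its 4 probe sets were all positive. COX6C differed by 0.21, again with the groups apart.

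COX5A, a matrix-side subunit, differed between the 2 knockdown arrays. It read -0.90 on the siRNA-2 array and 0.10 on the siRNA-1 array, against -0.04 and 0.04 on the control arrays, so the siRNA-2 array stood alone. Its second probe set had the same order with smaller sizes, -0.26 with siRNA-2 and 0.17 with siRNA-1, against 0.02 and -0.02 on the control arrays.

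Several complex IV subunits come as paralogs with a widely used form and a form restricted to muscle, lung or testis. Of the widely used forms, COX4I1 differed by -0.23 with the groups overlapping. Its control values lay far apart there, at 0.40 and -0.04. Differences of 0.04 and -0.05 came from its other probe sets in the brightest class. A dimmer one gave -0.32 with the groups apart. Among the remaining widely used forms, COX6A1 differed by 0.17, COX6B1 by 0.04, COX7A2 by 0.13, COX7B by -0.04 and COX8A by -0.13. The heart and muscle form COX6A2 differed by 0.17 and COX7A1 by -0.14, and the lung form COX4I2 by 0.18. The testis forms COX6B2, COX7B2 and COX8C, all in the dimmest class, differed by 0.25, -0.11 and -0.26. COX7A2L, which joins complexes III and IV into supercomplexes, had -0.11 and -0.06 on the knockdown arrays against 0.06 and 0.09 on the control arrays, a difference of -0.17. None of these passed, and no paralog group had a member at 1.5-fold, so an exchange of forms was not detectable on these arrays.

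On the chosen probe sets, the ATP synthase was the most even of the complexes with more than a few genes. Its 17 subunits had a median difference of 0.00 and a median absolute difference of 0.0840, against 0.153 for complex I and 0.174 for complex IV. The catalytic head differed little on these probe sets: ATP5F1A, the alpha subunit, by -0.07, ATP5F1B, the catalytic beta subunit, by -0.13, and ATP5F1C, the gamma shaft, by -0.05. The other probe sets of ATP5F1C gave -0.04, -0.03 and, on a dimmer one, 0.23 with the groups apart the other way. The 3 genes of the proton-carrying c ring, which encode the same mature protein, differed by 0.04 (ATP5MC1), -0.12 (ATP5MC2) and -0.08 (ATP5MC3). ATP5PB, of the stalk that holds the head, differed by -0.16.

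The highest differences in the ATP synthase were those of ATP5MJ and ATP5ME, small subunits of its membrane part. Others of that part lay nearer 0, with 0.11 for ATP5MF and -0.08 for ATP5MK. ATP5MG differed by 0.00 on its chosen probe set. Its other probe sets, also in the brightest class, gave -0.20, -0.19 and -0.14, each with the knockdown arrays below both controls. ATP5ME, the e subunit, which helps synthases pair, read 0.17 and 0.12 on the knockdown arrays and -0.15 and -0.12 on the control arrays. That gives 0.29 ± 0.10 (SE, n = 2 arrays per group, limma adjusted p = 0.326), with 0.22 on the second probe set and the groups apart on both. Both probe sets of ATP5ME are _x_at ones, so the gene is not read without _x_at and _s_at probe sets. ATP5MJ had 0.07 and 0.27 on the knockdown arrays against -0.23 and -0.07 on the control arrays, a difference of 0.32, but its second probe set gave -0.01. ATP5F1E, the epsilon subunit, differed by 0.17 on its bright probe set and by -0.48 on a dimmer one. The probe sets of ATP5F1E thus disagreed in sign, with the groups apart on each.

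Agreement between probe sets limits what can be read for single subunits. Of the 40 members with at least 2 probe sets outside the dimmest class, 21 had the same sign on all of them and 19 had mixed signs. The range between probe sets of a gene had a median of 0.192, larger than the median absolute difference of 0.150. Over the probe sets outside the dimmest class, the knockdown arrays lay above both controls on every one for 4 genes, ATP5ME, ATP5PO, COX7C and UQCR10, and below them for 1, ATP5F1D. ATP5PO also has a probe set in the dimmest class, with a difference of -0.43 and the groups apart the other way.

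**Figure D4:**
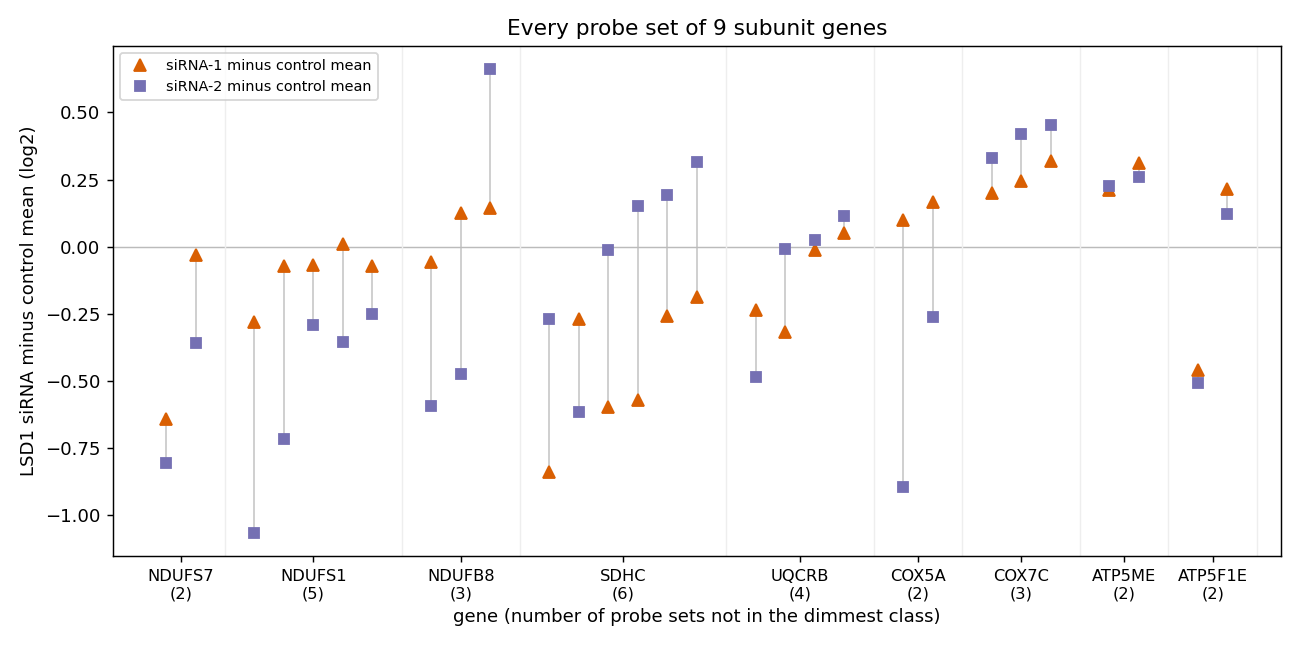
Difference of each LSD1 siRNA array from the mean of the control arrays (log2, vertical axis) for every probe set of 9 subunit genes outside the dimmest class, with triangles for siRNA-1, squares for siRNA-2 and a grey line joining the arrays of 1 probe set. COX7C and ATP5ME are above 0 on every probe set with both siRNAs, while UQCRB, NDUFB8 and ATP5F1E have probe sets on either side of 0.

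The siRNAs were then tested singly, in a model of 3 groups. This takes its error only from how far the controls lie apart and assumes the same for a knockdown array, and both contrasts share those controls. With siRNA-1, 0 members passed, beside 0% of all genes, and 13 members had an unadjusted p under 0.05, against 26.6% of all genes. With siRNA-2, 10 members passed (11.8%), beside a background of 23.2% of all genes. Of these, 5 rose (background 13.2%) and 5 fell (background 10.0%). At 1.5-fold or more there was 1 member with siRNA-1 (background 5.40%) and there were 6 with siRNA-2 (background 16.6%).

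The subunits that fell with siRNA-2, each on its chosen probe set, were COX5A by 0.90, NDUFS7 by 0.81, NDUFB8 by 0.60, UQCRB by 0.48 and UQCRC2 by 0.40 on the log2 scale, with limma adjusted p between 0.0204 and 0.0451. Those that rose were NDUFA6 by 0.76 (adjusted p = 0.0210) and COX7C by 0.45 (adjusted p = 0.0369). With siRNA-1 the same genes read 0.10 for COX5A, -0.64 for NDUFS7, -0.06 for NDUFB8, -0.24 for UQCRB, -0.03 for UQCRC2, 0.19 for NDUFA6 and 0.32 for COX7C, and none of these passed. On their other probe sets, siRNA-2 minus the control mean was -0.47 and 0.66 for NDUFB8 and 0.11, 0.03 and -0.01 for UQCRB. It was -0.40 and 0.17 for UQCRC2, -0.26 for COX5A and -0.36 for NDUFS7. For the genes that rose it was 0.48 for NDUFA6 and 0.42 and 0.33 for COX7C. None of the 17 ATP synthase subunits passed with either siRNA. The siRNA-2 calls of members and of all other genes were lost when the centred values were quantile normalized. That step gives the deviations on each array the same spread. Before it, their SD over all probe sets was 0.384 on the siRNA-2 array and 0.164 and 0.154 on the control arrays. The loss therefore cannot tell whether the calls hold.

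A direct test between the siRNAs sets 1 array against 1 and takes its error from the gap between the controls, although values over all probe sets had an SD of 0.384 on the siRNA-2 array and 0.197 on the siRNA-1 array. Its calls therefore describe these arrays and not the siRNAs. It called 2 members, beside a background of 6.56% of all genes, 3.84% with siRNA-2 higher and 2.73% with siRNA-2 lower. In both members siRNA-2 was the lower. COX5A differed by -0.996 ± 0.09 (SE, siRNA-2 minus siRNA-1, limma adjusted p = 0.0433), and SDHAF3, an assembly factor that matures the iron-sulfur subunit of complex II, by -0.80 ± 0.08 (adjusted p = 0.0450). SDHAF3 read -0.33 on the siRNA-2 array and 0.47 on the siRNA-1 array, against -0.00 and 0.00 on the control arrays, so that it lay on opposite sides of the controls. Both calls were lost with every probe set tested on its own or with quantile normalization.

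The members that are not subunits held the other calls. SDHAF4, which assists the flavoprotein of complex II, rose by 0.90 with siRNA-2 (limma adjusted p = 0.0434), and read -0.03 on the siRNA-1 array and 0.79 on the siRNA-2 array, against -0.24 and 0.03 on the control arrays. SDHAF1, an assembly factor for the iron-sulfur subunit, rose by 0.44 with siRNA-2 (adjusted p = 0.0438), and its second probe set gave 0.62. NDUFV2-AS1, an antisense RNA in the dimmest class, read 0.20 and 0.95 on the knockdown arrays and -0.20 and -0.38 on the control arrays. Its difference of 0.86 ± 0.28 (SE, n = 2 arrays per group, limma adjusted p = 0.312) did not pass, and the rise of 1.24 with siRNA-2 did (adjusted p = 0.0218). The other probe set of NDUFV2-AS1 gave a difference of 0.09. ATP5IF1, the inhibitor of ATP hydrolysis by the synthase, differed by -0.03 on its chosen probe set and by 0.40 and 0.24 on the other probe sets, where the groups were apart. SDHAF2, the flavinylation factor of SDHA, differed by -0.27 with the groups apart.

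The subunits encoded by mitochondrial DNA are not members, and 7 of the 13 were measured, under symbols that lack the MT prefix. None passed in knockdown against control (background 0.00506%). MT-CO3, a core subunit of complex IV, read 0.54 and 0.18 on the knockdown arrays and -0.48 and -0.18 on the control arrays, a difference of 0.69 ± 0.19 (SE, n = 2 arrays per group, limma adjusted p = 0.270). It was read by an _x_at probe set alone, in the class from 4 to 8, while the chosen probe sets of the others were in the brightest class. MT-ND2 and MT-ATP6, of complexes I and V, had differences of 0.36 and 0.35, MT-CO1 of 0.30, MT-ND4 of 0.23 and MT-CO2 of 0.10. On each of these 6 both knockdown arrays lay above both control arrays, which is 85.7% of the 7 genes beside 23.6% of all genes.

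MT-ND6, which lies alone on the opposite strand of mitochondrial DNA from the other protein genes, was the exception. It read -0.02 and -0.40 on the knockdown arrays, against 0.04 and 0.02 on the control arrays, a difference of -0.24, and it fell by 0.43 with siRNA-2 (limma adjusted p = 0.0410). Counted over the 10 probe sets of these genes, the knockdown arrays lay above both controls on 9 and below them on 1. Over all genes, with 1 probe set each, these shares were 23.6% and 25.4%. The median difference over the 7 genes was 0.30, against 0.01 over the 85 members and -0.00 over all genes. The genes of each mitochondrial strand are transcribed together and have near-identical nuclear copies, so the 6 that were higher are not independent readings. The hybridization spike-ins and the ACTB ratio given above move with the groups as these values do, and their part was not tested.

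**Figure D5:**
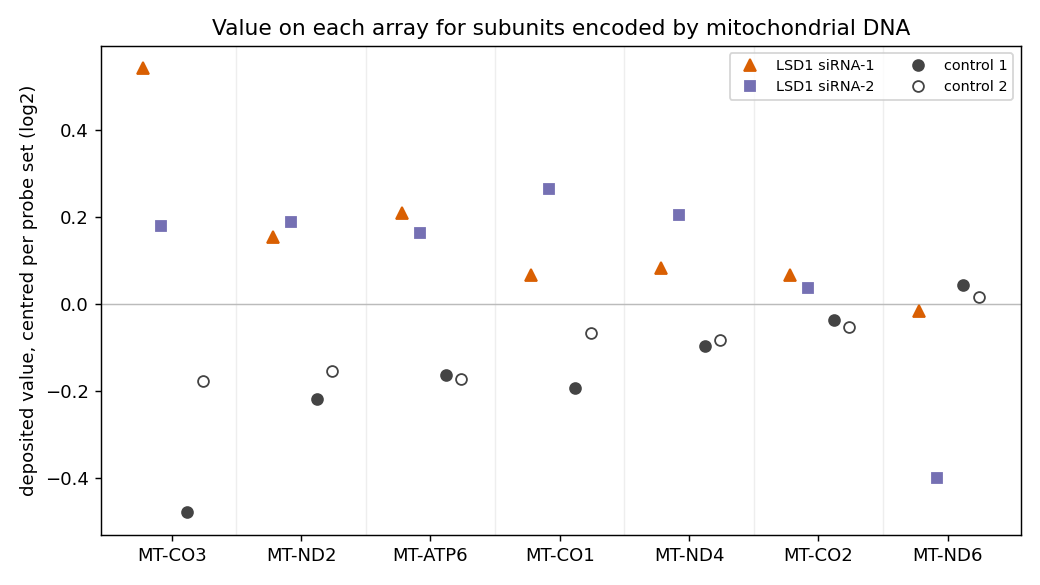
Centred value (log2, vertical axis) on each array of the 7 measured subunits encoded by mitochondrial DNA: triangles siRNA-1, squares siRNA-2, circles controls. The knockdown arrays lie above both controls for 6 subunits and below them for MT-ND6, at -0.02 and -0.40 against 0.04 and 0.02.

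Genes that build, feed and regulate the chain were read from lists. In the list of 49 assembly factors, all measured and with the 4 SDHAF genes among them, the knockdown arrays lay above both controls for 7 and below them for 18 (14.3% and 36.7%, background 23.6% and 25.4%), with a median difference of -0.01 and none called. Of the list, 83.7% were in the brightest class, where the background was 26.5% above and 29.9% below. SCO2, a copper chaperone of complex IV, had -0.31 and -0.94 on the knockdown arrays against 0.31 and 0.32 on the control arrays, a difference of -0.94 ± 0.23 (SE, n = 2 arrays per group, limma adjusted p = 0.257). NDUFAF3, an early complex I factor, was even across siRNAs, with -0.22 and -0.20 on the knockdown arrays against 0.27 and 0.20 on the control arrays. Among the larger differences with siRNA-2, NDUFAF5, which hydroxylates NDUFS7, fell by 1.5 on the log2 scale. COX15, a heme A enzyme, fell by 1.08, and SURF1, a complex IV factor, rose by 1.02. The siRNA-1 differences were -0.12 for NDUFAF5, 0.22 for COX15 and -0.03 for SURF1, and the direct test between the siRNAs called these 3 among 6 factors of the list, beside a background of 6.56%.

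Of 19 genes for electron carriers and coenzyme Q, the knockdown arrays lay above both controls for 6 and below them for 4 (31.6% and 21.1%, background 23.6% and 25.4%), with none called. PDSS2, of the enzyme that makes the coenzyme Q tail, differed by 0.73 ± 0.14 (SE, n = 2 arrays per group, limma adjusted p = 0.213), with 0.50 and 0.26 on the knockdown arrays against -0.44 and -0.26 on the control arrays. COQ2, which joins that tail to the ring, differed by 0.57, COQ10A by 0.71 and cytochrome c (CYCS) by 0.07. COQ3, a methyltransferase of the pathway, fell by 1.44 with siRNA-2, where 3 genes of the list rose and 2 fell (background 13.2% and 10.0%), and differed by 0.05 with siRNA-1. Among 7 measured carriers of nucleotides and phosphate, 2 were higher and 2 lower by that count (28.6% each, background 23.6% and 25.4%). SLC25A5, an ADP/ATP carrier, differed by 0.32 and the outer-membrane channel VDAC2 by -0.57. COXFA4 (NDUFA4), a complex IV subunit by its current name, differed by 0.16, and its paralog COXFA4L2 by -0.23.

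In the list of 16 regulators of mitochondrial genes, the knockdown arrays lay above both controls for 1 (background 23.6%) and below them for 8 (background 25.4%). The median difference was -0.10 and none was called. NRF1, the factor whose letters were searched in the promoters, read -0.30 and -0.15 on the knockdown arrays and 0.15 and 0.23 on the control arrays, a difference of -0.41 ± 0.11 (SE, n = 2 arrays per group, limma adjusted p = 0.275). The coactivator PPARGC1B differed by -0.66 and PPRC1, of the same family, by -0.36. PPARGC1A was the gene of the list that was higher, with 0.65 and 0.11 on the knockdown arrays and -0.11 and -0.18 on the control arrays, a difference of 0.52. GABPA differed by -0.32, the helicase TWNK by -0.36 and the polymerase subunit POLG2 by -0.31. TFAM, which packs mitochondrial DNA and takes part in its transcription, differed by 0.02, ESRRA by 0.00 and YY1 by 0.06. With siRNA-2, 4 genes of this list fell and 0 rose, beside backgrounds of 10.0% and 13.2%.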

How the data were processed

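RNA of HepG2 cells was read on 4 arrays. The deposited log2 values were made by the authors with RMA, per the submitters' processing notes; its version is not given in the sources used here, and the log base, not stated, is taken as 2. Each of 54675 probe sets has a median of 0 over the 4 arrays (largest deviation 5e-07), a step read from the values. Brightness was therefore classed from the step of the single-precision values (8 or above, 4 to 8, below 4), which puts about 1 in 8 into the next brighter class by chance.

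Probe sets were named from the platform annotation: 41097 had 1 symbol, 6 of these being Affymetrix controls left out, 1801 had several and were not used, and 11777 are unnamed here. Symbols were matched to RefSeq by gene identifier for 19735 of 19775 genes. For each gene the probe set of the brightest class was used, then one without a letter suffix, then the first identifier.

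Groups came from the sample titles. Knockdown was compared with control in limma 3.58.1 (R 4.3.3; 2 against 2 arrays, two-sided, Benjamini-Hochberg over all genes, threshold 0.05; prior with 2.34 degrees of freedom and SD 0.133). Each siRNA and the difference between them were tested in a limma fit with 3 groups (prior 2.01 degrees of freedom, SD 0.0670). An exact two-sided permutation test of 2 against 2 arrays cannot go below 0.33, so none is given. Arrays give no depth; their number limits the precision.

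The members, gene lists, motifs and tests were chosen with earlier results of these data known. Named were core subunits, paralog groups, the 3 largest positive and 3 largest negative differences per complex among members whose groups do not overlap, members called in any contrast, and KDM1A; other members are given as extremes, further examples or parts of a list, chosen after their values were seen. Alternatives were another probe set rule, a filter on dim genes, another scaling, robust moderation, a replicate block and leaving out each array. Quantile normalization was applied to the centred values, so it gives the deviations on each array the same spread.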

Additional observations from a re-analysis of the deposited data

Results flagged for a closer look

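COX5A differed between the knockdown arrays by -0.996 on the log2 scale (siRNA-2 minus siRNA-1, limma adjusted p = 0.0433), which is what drew attention to it. This sets 1 array against 1, with the error taken from the control pair, and with every probe set tested on its own 0 members passed, so the difference describes these arrays. Its second probe set gave -0.26 with siRNA-2 and 0.17 with siRNA-1.

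SDHAF3 passed the same test with a difference of -0.797 (limma adjusted p = 0.0450). It has 1 probe set, on which siRNA-2 read -0.33 and siRNA-1 read 0.47.

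The 18 hybridization spike-in probe sets, which are outside the gene comparisons, had a median 1.34 higher on the knockdown arrays than on the control arrays. The 24 poly-A spike-in probe sets, added before labelling, had medians of 0.14 and 0.07 on the knockdown arrays and -0.37 and -0.05 on the control arrays, a difference of 0.31.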

How the results depend on the processing

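The count of members called between knockdown and control was 0 with each other probe set rule, the filter on dim genes, both other scalings, robust moderation and the replicate block (0 called), and ran from 0 to 10 when arrays were left out, the 10 being without LSD1_KD replicate 1, which leaves siRNA-2 alone. Deviations of same-numbered arrays correlated at 0.0365 over genes. The knockdown deviation also holds any difference between the siRNAs, so this value cannot tell whether same-numbered arrays form pairs. The block is given only here. Over all genes, quantile normalization called 419 genes and main settings 1. With every probe set taken on its own (161), the knockdown arrays lay above both controls for 39 and below for 49; leaving out arrays gave 28 to 38 members higher and 29 to 39 lower, in part because fewer arrays have to be apart.

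Calls with siRNA-2 numbered 19 with every probe set, 16 without genes below 4 and 0 after quantile normalization. Between the siRNAs there were 6 with probe sets averaged, 1 without _x_at and _s_at probe sets, 0 with every probe set, 6 without genes below 4, 8 with arrays set to a median of 0 and 0 after quantile normalization. The cause was not tested.

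The median over all members was 0.0022 without _x_at and _s_at probe sets, -0.0105 with every probe set, 0.0123 with arrays set to a median of 0, 0.0166 after quantile normalization and -0.0062 to 0.0272 with arrays left out. With every probe set, medians were -0.1403 for complex II, -0.016 for complex III and -0.047 for complex V, and with probe sets averaged -0.0793 for complex III and -0.0656 for complex V. Complex IV had 0.1349 without genes below 4. With arrays left out, medians ran from -0.0175 to 0.0234 for complex I, -0.0603 to 0.1788 for II, -0.206 to -0.033 for III, 0.0437 to 0.0986 for IV and -0.0654 to 0.0272 for V.

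Of 567 alternative values of named members, 539 kept direction and side of the threshold, 10 passed newly, all with siRNA-2 alone, and 18 reversed. Reversed were, with probe sets averaged, ATP5F1C (0.0272), ATP5F1E (-0.1583) and SDHD (-0.099), and, without _x_at and _s_at probe sets, ATP5F1C (0.2265). With arrays left out, without LSD1_KD replicate 1 turned ATP5MC1, SDHAF3, SDHC and SDHD, without LSD1_KD replicate 2 turned COX5A, COX6B1, COX7B, NDUFS1, NDUFV2, SDHA and SDHAF1, without control replicate 1 turned COX7A1, and without control replicate 2 turned SDHC and SDHD (0.0482 and -0.021). Their values with arrays left out ran from -0.1442 to 0.2314 for ATP5MC1, -0.3266 to 0.47 for SDHAF3, -0.2585 to 0.1905 for SDHC, -0.2867 to 0.2993 for SDHD, -0.8975 to 0.0986 for COX5A, -0.0012 to 0.0758 for COX6B1, -0.1635 to 0.0866 for COX7B, -0.3547 to 0.0099 for NDUFS1, -0.0415 to 0.3598 for NDUFV2, -0.0603 to 0.1788 for SDHA, -0.0551 to 0.4388 for SDHAF1 and -0.3581 to 0.0689 for COX7A1. The cause was not tested.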
